A study of Mus musculus with 15 samples.

Results

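RNA-Seq values of 8 complement genes were examined in conjunctival tissue. They were chosen by gene symbol and comprise the 3 chains of C1q (*C1qa*, *C1qb*, *C1qc*), the central components *C4b* and *C3*, factor B (*Cfb*), and the receptors for the C3a and C5a fragments (*C3ar1*, *C5ar1*). They are 8 of the 55487 genes listed, and all 8 were among the 19006 genes tested, those with 10 or more counts in 5 or more libraries. The lowest value of any of them was 126 counts, for *C5ar1* in 1 PBS library. The 8 genes were chosen with earlier results of these data known. The samples were 15 libraries from WT BALB/c mice (spelled BALC/c in the labels), female and 9 to 12 weeks old per the methods, with 5 libraries in each of 3 groups. All mice, controls included, were sensitized in the skin with MC903 (a vitamin D analog that inflames the skin, 2.5 nmol per day for 7 days) together with OVA, and their eyes were challenged daily for 7 days, from day 18 to day 24. The eyes of the PBS group received PBS, and the labels give no antibody for it. The isotype group received OVA in the eye with an isotype control antibody, and the anti–IL-4Rα group received OVA in the eye with an antibody to the IL-4 receptor α chain, both at 25 mg/kg. Ocular OVA and the presence of an antibody therefore cannot be told apart in any comparison with the PBS group. Libraries of each group enter 2 of the 3 comparisons, so that the comparisons are not independent of each other.

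Complement is a protease cascade of plasma and tissue fluids, tear fluid included. C1q binds antibody complexes and other targets and starts the classical pathway through the proteases C1r and C1s, which cleave C4 and C2; the classical, lectin and alternative pathways meet at C3, and factor B supplies the protease of the alternative C3 convertase. The fragments C3a and C5a act on receptors of myeloid cells, mast cells among them, and much of the C1q in tissues is made by macrophages, whereas C3, C4 and factor B are also made by epithelial cells and fibroblasts.

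Library totals ran from 48622195 to 87744970 estimated counts. The 5 epithelial markers of conjunctiva (*Krt4*, *Krt13*, *Krt19*, *Pax6* and *Muc5ac*) were present in every library, with sums of 2751 to 4885 CPM (counts per 1000000 counts of a library, normalized by TMM factors). Skeletal muscle markers were present as well, summing to 5591 to 9629 CPM with PBS and 3336 to 5084 CPM with isotype. By edgeR at an adjusted p under 0.05, 5 of 5 were lower in the isotype group, as were 7.49% of all genes. The summed level of 7 lacrimal acinar markers ran from 18.1 to 3572 CPM in the PBS group, from 52.0 to 2402 CPM in the isotype group and from 93.8 to 10797 CPM in the anti–IL-4Rα group, in which anti–IL-4Rα replicate 3 was the lowest and the other 4 libraries were at 3925 CPM or more; 2 of these genes were at 0 in every library. Bulk values cannot tell apart more cells of a type and more RNA per cell.

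All 8 genes lie on the minus strand of GRCm38. *C1qb* (ENSMUSG00000036905, chr4:136880129-136886187), *C1qc* (ENSMUSG00000036896, chr4:136889804-136893065) and *C1qa* (ENSMUSG00000036887, chr4:136895917-136898803) form a cluster of 18675 bases. Of the 8 genes, 5 matched an entry of the RefSeq promoter table (GRCm38.p6), which holds *C1qb*, *C1qc*, *C3*, *C3ar1* and *C5ar1*; *C1qa*, *C4b* and *Cfb* were not matched. The 250 bases before the start are shown for *C1qb* and *C1qc*, whose levels varied together, for *C3*, the gene called with IL-4Rα blockade, and for the receptor gene *C3ar1*, all read 5′ to 3′ on the minus strand. The starts are those of RefSeq and can lie inside the GENCODE gene: 151 of the 250 bases shown for *C1qc* and 4 of those for *C3ar1* fall within the positions annotated for the gene, as do 202 for *C5ar1*. Capitals mark matches to the 4 motifs searched on both strands.
C1qb, chr4:136886201-136886450: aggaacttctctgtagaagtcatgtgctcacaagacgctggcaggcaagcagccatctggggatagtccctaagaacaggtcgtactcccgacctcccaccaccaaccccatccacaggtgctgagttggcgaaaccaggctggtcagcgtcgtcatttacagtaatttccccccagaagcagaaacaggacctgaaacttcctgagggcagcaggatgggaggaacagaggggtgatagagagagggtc
C1qc, chr4:136892915-136893164: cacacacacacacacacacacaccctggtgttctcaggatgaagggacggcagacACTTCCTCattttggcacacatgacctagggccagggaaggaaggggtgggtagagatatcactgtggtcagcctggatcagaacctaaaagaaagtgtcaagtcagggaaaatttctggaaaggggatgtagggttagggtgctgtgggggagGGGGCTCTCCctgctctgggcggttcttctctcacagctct
C3, chr17:57228137-57228386: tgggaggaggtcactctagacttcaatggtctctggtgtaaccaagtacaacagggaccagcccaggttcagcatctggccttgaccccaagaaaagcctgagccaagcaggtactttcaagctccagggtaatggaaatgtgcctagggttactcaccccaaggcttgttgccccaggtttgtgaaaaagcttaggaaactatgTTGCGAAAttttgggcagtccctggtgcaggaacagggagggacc
C3ar1, chr6:122856158-122856407: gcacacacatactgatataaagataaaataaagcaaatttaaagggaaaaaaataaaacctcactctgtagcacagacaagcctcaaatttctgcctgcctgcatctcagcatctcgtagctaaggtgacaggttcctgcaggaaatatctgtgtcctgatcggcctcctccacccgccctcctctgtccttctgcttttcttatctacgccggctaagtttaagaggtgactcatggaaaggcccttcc

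In the *C1qc* window, the PU.1 core GAGGAAGT occurred on the opposite strand at positions -195 to -188, counted back from -1 at the base before the start, and an NF-kB motif at -41 to -32, within the annotated gene. The PU.1 core was present in 2.44% and the NF-kB motif in 7.25% of 32851 promoter windows of the same length. The C/EBP palindrome TTNCGNAA lay at -45 to -38 of *C3*, and 2.04% of windows held it. TTC and GAA with 4 bases between them (the spacing that STAT6 prefers, in 5.85% of windows) were in none of the 5 windows, *C5ar1* included. These matches describe letters and say nothing of binding.

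The 8 genes differed widely in level. Per kilobase of exon, which allows genes to be set side by side, *C3* had the highest level in the PBS group with 80.3 ± 5.28 CPM per kb (mean ± SD, n = 5), followed by *C1qa* with 49.4 ± 3.24, *C1qb* with 29.6 ± 2.77, *C1qc* with 23.2 ± 1.45, *C4b* with 19.1 ± 1.88 and *Cfb* with 14.96 ± 0.997 CPM per kb. The receptor genes were far lower, with 1.25 ± 0.153 CPM per kb for *C3ar1* and 1.09 ± 0.175 CPM per kb for *C5ar1*, a difference within their spread. In the isotype group *C3* (100 ± 26.9 CPM per kb) and *C1qa* (97.1 ± 26.6 CPM per kb) were level within their spread, as were *C4b* (22.2 ± 3.33) and *Cfb* (20.2 ± 2.36). In the anti–IL-4Rα group the mean of *C1qa* (78.6 ± 9.85 CPM per kb) exceeded that of *C3* (68.4 ± 12.9 CPM per kb), also within the spread. These levels rest on annotated exon lengths, and the order of *C1qb* and *C1qc* depends on them. In CPM, *C1qc* (44.8 ± 2.79) lay above *C1qb* (32.2 ± 3.01) in the PBS group.

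**Figure D1:**
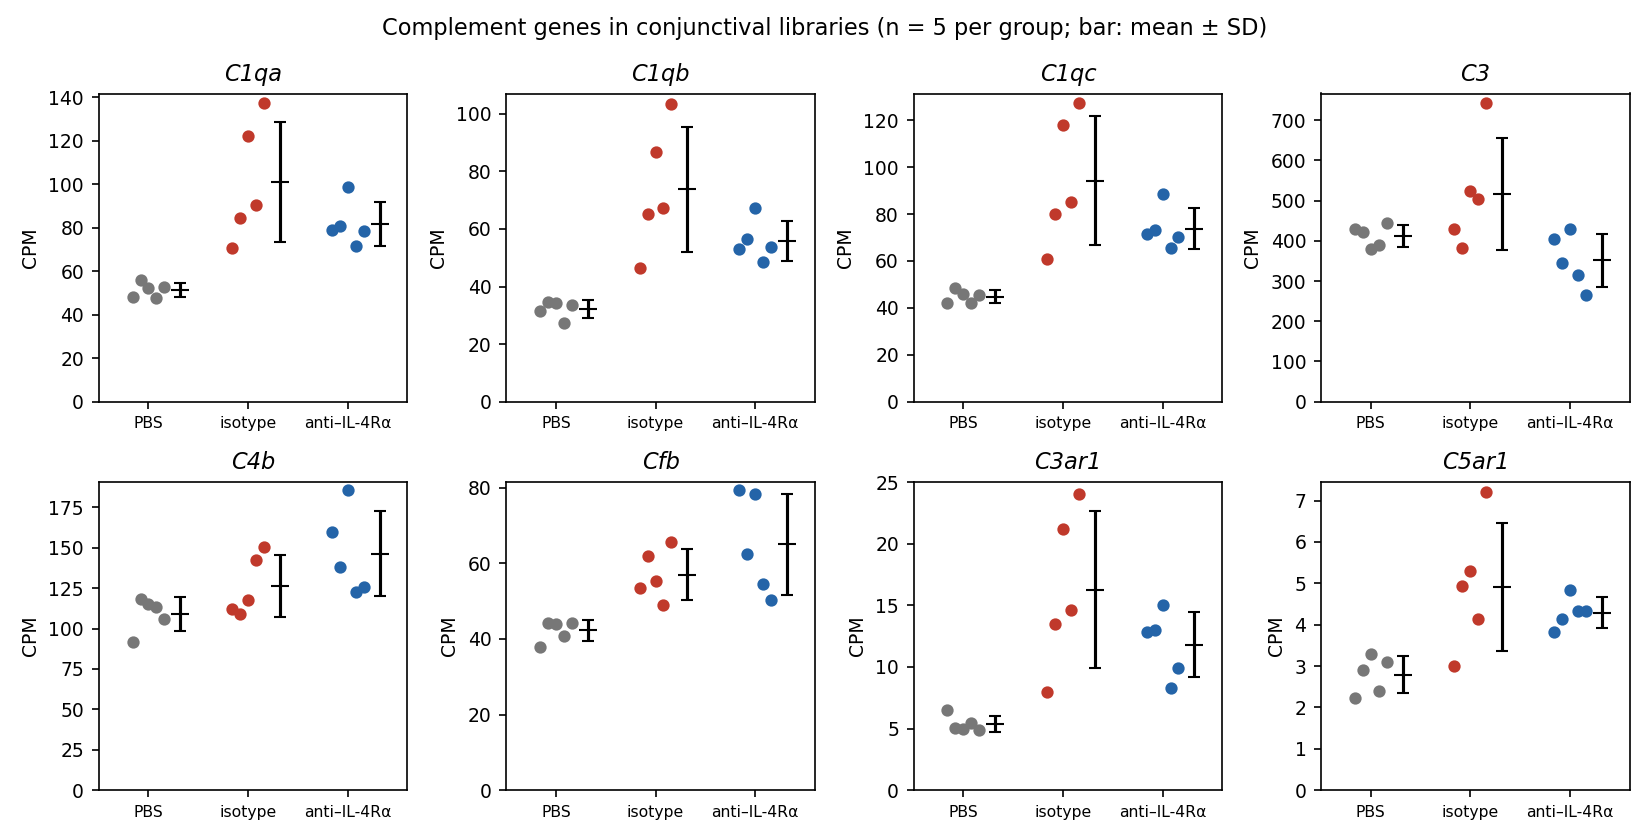
Level in CPM (y axis, from 0) of each of the 8 genes in every library of the PBS, isotype and anti–IL-4Rα groups (x axis); each point is 1 library, and the bar beside each group is the mean ± SD (n = 5). *C1qa* spans 47.9 to 55.9 CPM over the PBS libraries and 70.5 to 137 CPM over the isotype libraries.

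The first comparison, isotype against PBS, asks which complement genes differed after ocular OVA in sensitized mice. Genes were called at an adjusted p under 0.05 in edgeR's quasi-likelihood test (Benjamini-Hochberg adjustment over 19006 genes). By that test 6 of the 8 genes rose and none fell: the C1q genes and *C3ar1* had log2 fold changes of 0.98 to 1.60, *C5ar1* and *Cfb* of 0.82 and 0.43, and *C3* and *C4b* did not pass. Over all genes tested, 9.53% were called higher and 7.49% lower (1812 and 1423 genes, or 1479 and 1844 with upper quartile factors). The median log2 fold change of the 8 genes was 0.90, against -0.01 over all genes. For 5 of the 8 the lowest isotype library exceeded the highest PBS library, as it did for 6.85% of all genes, while the groups separated the other way for 0 of the 8 and 5.43% of all genes. Because the 8 genes were chosen with earlier results known, the shares over all genes are not a neutral background for them.

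*C1qa* encodes the A chain of C1q. It was measured at 48.1, 55.9, 52.2, 47.9 and 52.7 CPM in PBS replicates 1 to 5 and at 70.5, 84.4, 122, 90.6 and 137 CPM in isotype replicates 1 to 5. The isotype libraries all lay above the PBS libraries, with replicates 3 and 5 highest and replicate 1 closest to the PBS group. Its log2 fold change was 0.98 (adjusted p = 0.00180, SE 0.15).

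*C1qb*, the B chain, was at 31.5, 34.6, 34.2, 27.3 and 33.6 CPM in the PBS libraries and at 46.5, 65.1, 86.8, 67.2 and 103 CPM in the isotype libraries. *C1qc*, the C chain, was at 41.9, 48.5, 46.1, 42.2 and 45.5 CPM in the PBS libraries and at 61.0, 80.2, 118, 85.2 and 127 CPM in the isotype libraries. The groups did not overlap for either gene, and isotype replicates 3 and 5 were again the highest and replicate 1 the lowest. The log2 fold change was 1.20 for *C1qb* (adjusted p = 0.00103, SE 0.17) and 1.07 for *C1qc* (adjusted p = 0.00151, SE 0.16). All 3 C1q genes were called in the 15 fits that left out 1 library each and in the 9 alternative settings. The ratio of *C1qb* to *C1qa* per kb, chosen after its values were seen and given with no test, was 0.544 to 0.627 in the PBS libraries and 0.630 to 0.737 in the isotype libraries. None of the 3 genes shared any stretch of 90 bases, the read length, with another annotated gene.

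*C3ar1* (ENSMUSG00000040552, chr6:122847138-122856161) encodes the receptor for C3a. It was at 6.47, 5.05, 4.95, 5.48 and 4.88 CPM in the PBS libraries and at 7.99, 13.5, 21.2, 14.6 and 24.04 CPM in the isotype libraries. All isotype libraries lay above the PBS libraries, replicate 1 by the least. The log2 fold change was 1.60 (adjusted p = 0.00180, SE 0.25), and *C3ar1* was called in every fit with 1 library left out and in the 9 other settings.

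*C5ar1* (ENSMUSG00000049130, chr7:16246743-16259540) encodes the main receptor for C5a. It was at 2.24, 2.90, 3.29, 2.41 and 3.11 CPM in the PBS libraries and at 3.002, 4.94, 5.30, 4.14 and 7.20 CPM in the isotype libraries. Isotype replicate 1 lay within the PBS range and the other 4 isotype libraries lay above it. The log2 fold change was 0.82 (adjusted p = 0.0114, SE 0.19), and an exact permutation test of the CPM values gave a two-sided p of 0.0238, where 5 libraries against 5 allow 0.00794 at the least.

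*Cfb* (ENSMUSG00000090231, chr17:34856374-34862518) encodes factor B. It was at 37.9, 44.2, 44.1, 40.9 and 44.3 CPM in the PBS libraries and at 53.4, 61.9, 55.3, 49.0 and 65.6 CPM in the isotype libraries. The groups did not overlap, and the log2 fold change of 0.43 (adjusted p = 0.0280, SE 0.12) was smaller than those of the C1q genes. The call was lost without PBS replicate 1 (adjusted p = 0.0592), PBS replicate 4 (0.0577), isotype replicate 2 (0.0649), isotype replicate 3 (0.0518) or isotype replicate 5 (0.0673), and in the linear model on log2(FPKM + 1) (0.0622). *Gm20547*, an overlapping gene on the same strand, contains 68.06% of the 90-base stretches of *Cfb*, so that the authors' counting could divide reads between them; its own values were 0 to 176 counts per library.

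*C3* (ENSMUSG00000024164, chr17:57203970-57228136) encodes the component at which the pathways meet. It was at 428, 422, 380, 389 and 445 CPM in the PBS libraries and at 429, 383, 523, 505 and 742 CPM in the isotype libraries. Isotype replicates 1 and 2 lay within the PBS range and the other 3 above it. The log2 fold change of 0.32 (SE 0.16) did not pass (adjusted p = 0.182), and the two-sided p of an exact permutation test was 0.0952.

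*C4b* (ENSMUSG00000073418, chr17:34728380-34743882) encodes C4, the target of the C1s protease. It was at 91.8, 118, 115, 114 and 106 CPM in the PBS libraries and at 112, 109, 117, 142 and 151 CPM in the isotype libraries. Only isotype replicates 4 and 5 exceeded the PBS range, and the log2 fold change of 0.21 (SE 0.12) did not pass (adjusted p = 0.251). Of its 90-base stretches, 17.77% also occur in the paralog *C4a*, whose level per kb was 0.0383 to 0.0530 of that of *C4b*.

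**Figure D2:**
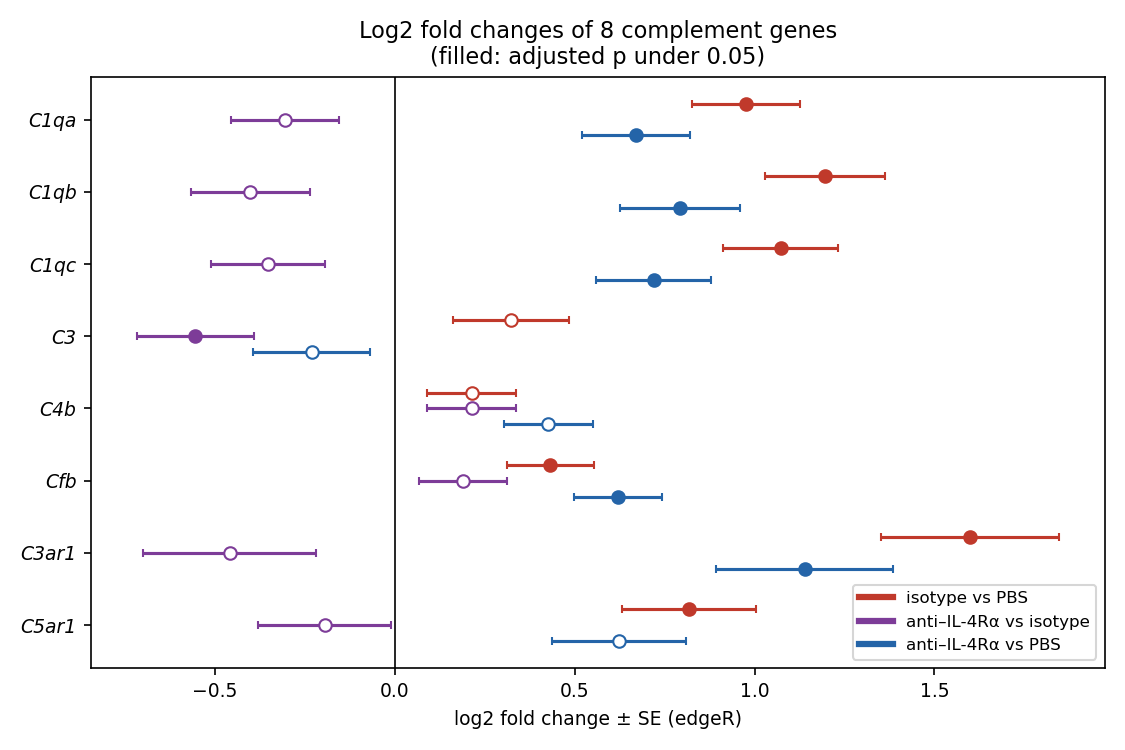
Log2 fold change ± SE from edgeR (x axis) of the 8 genes (y axis) for isotype against PBS, anti–IL-4Rα against isotype and anti–IL-4Rα against PBS; filled symbols passed an adjusted p of 0.05. The isotype against PBS values run from 0.21 for *C4b* to 1.60 for *C3ar1*, and *C3* at -0.55 is the filled value for anti–IL-4Rα against isotype.

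The second comparison, anti–IL-4Rα against isotype, asks which complement genes differed with IL-4Rα blockade in OVA-challenged mice. *C3* fell, and the other 7 genes did not pass the edgeR test. Over all genes, 8.13% were called lower and 6.73% higher, and 3 of the 8 genes had an unadjusted p under 0.05. Log2 fold changes were negative for 6 of the 8 genes and positive for *C4b* and *Cfb*, with a median of -0.33 against 0.01 over all genes. The groups overlapped for all 8 genes, where over all genes 2.35% had every anti–IL-4Rα library above and 4.96% below the isotype libraries.

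*C3* was at 404, 344, 430, 314 and 266 CPM in anti–IL-4Rα replicates 1 to 5, beside the isotype values of 383 to 742 CPM. Replicates 2, 4 and 5 lay below every isotype library, and the other 2 lay within the isotype range. The log2 fold change was -0.55 (adjusted p = 0.0374, SE 0.16), and the exact permutation test gave a two-sided p of 0.0397. The call did not hold without isotype replicate 3 (adjusted p = 0.0789), isotype replicate 5 (0.0771, log2 fold change -0.39), or anti–IL-4Rα replicate 1 (0.0556), 2 (0.0721), 4 (0.0863) or 5 (0.0807), so that 9 of 15 fits called it. It was also lost in 5 of 9 alternative settings, with an adjusted p of 0.0982 when only the 2 groups were fitted and 0.103 with the lacrimal acinar score as a covariate.

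The C1q genes had values between those of the other groups. *C1qa* was at 78.7, 81.0, 98.9, 71.5 and 78.4 CPM, *C1qb* at 53.0, 56.6, 67.1, 48.5 and 53.8 CPM, and *C1qc* at 71.7, 73.1, 88.3, 65.4 and 70.4 CPM in the anti–IL-4Rα libraries. Each of these values lay within the isotype range of its gene. The log2 fold changes against isotype were -0.31 for *C1qa* (adjusted p = 0.172, SE 0.15), -0.40 for *C1qb* (adjusted p = 0.109, SE 0.17) and -0.35 for *C1qc* (adjusted p = 0.137, SE 0.16). These outcomes depended on isotype replicate 1. Without it the adjusted p was 0.0427 for *C1qa*, 0.0172 for *C1qb*, 0.0226 for *C1qc* and 0.0349 for *C3ar1*. *C3* kept its call in that fit. Over all genes, fits without 1 library called 882 to 4206 genes in this comparison, and 2826 were called with all libraries. The background of these calls therefore differed between fits, and they are not read as particular to complement. With limma's voom and quality weights, the 3 C1q genes and *C3* were called lower.

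The receptor genes were at 12.8, 13.002, 15.02, 8.32 and 9.92 CPM (*C3ar1*) and at 3.83, 4.14, 4.85, 4.32 and 4.32 CPM (*C5ar1*) in the anti–IL-4Rα libraries, all within the isotype ranges. Their log2 fold changes were -0.46 for *C3ar1* (adjusted p = 0.198, SE 0.24) and -0.20 for *C5ar1* (adjusted p = 0.475, SE 0.18). *Cfb* was at 79.5, 62.5, 78.4, 54.5 and 50.2 CPM and *C4b* at 160, 138, 186, 123 and 126 CPM. For both genes, anti–IL-4Rα replicates 1 and 3 exceeded every isotype library. The log2 fold changes were 0.19 for *Cfb* (adjusted p = 0.290, SE 0.12) and 0.21 for *C4b* (adjusted p = 0.241, SE 0.12).

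The third comparison, anti–IL-4Rα against PBS, shows how far the values with blockade still lay from those of PBS-challenged eyes. *C1qa*, *C1qb*, *C1qc*, *Cfb* and *C3ar1* were higher, which is 5 of the 8 genes, where 2.28% of all genes were called higher and 1.44% lower (434 and 273 genes, or 354 and 336 with upper quartile factors). Every anti–IL-4Rα library lay above every PBS library for 7 of the 8 genes, as for 2.98% of all genes (3.12% lay wholly below), and *C3* was the exception. The median log2 fold change of the 8 genes was 0.65, and it was -0.00434 over all genes. The choice of the 8 genes with earlier results known limits this contrast too.

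The log2 fold changes against PBS were 0.67 for *C1qa* (adjusted p = 0.0337, SE 0.15), 0.79 for *C1qb* (adjusted p = 0.0289, SE 0.17), 0.72 for *C1qc* (adjusted p = 0.0322, SE 0.16), 1.14 for *C3ar1* (adjusted p = 0.0304, SE 0.25) and 0.62 for *Cfb* (adjusted p = 0.0231, SE 0.12). *C4b* (0.43, SE 0.12, adjusted p = 0.0665) and *C5ar1* (0.62, SE 0.19, adjusted p = 0.0711) did not pass over all genes, although their groups were separate, with p = 0.00794 each in the two-sided exact permutation test, the smallest value possible. *C3* had a log2 fold change of -0.23 (adjusted p = 0.420, SE 0.16), and 3 of its anti–IL-4Rα libraries lay below the PBS range.

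The calls against PBS were close to the threshold. None of the 8 genes was called without PBS replicate 1, 2 or 4 or without anti–IL-4Rα replicate 1 (7 of 8 had an unadjusted p under 0.05 in each of these edgeR fits), while 2 were called without PBS replicate 3 and 1 each without anti–IL-4Rα replicate 2 or 5, and the adjusted p values of the lost calls ran up to 0.0858. The linear model on log2(FPKM + 1) called none of them, with 7 genes at an unadjusted p under 0.05, and DESeq2 called 7. With the lacrimal acinar score as a covariate, *Cfb* was the 1 gene of the 8 still called. The log2 fold changes in that edgeR fit were 0.73 for *C1qa* (adjusted p = 0.0822), 0.89 for *C1qb* (0.0635), 0.78 for *C1qc* (0.0785) and 1.32 for *C3ar1* (0.0563). Lacrimal acinar markers were at 3925 CPM or more in 4 of the 5 anti–IL-4Rα libraries and at 3572 CPM or less in the PBS libraries, and their part in these calls was not tested further.

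The C1q genes varied together. Over the 15 libraries, with values centered within the groups, log2 CPM correlated with Pearson's r of 0.97 for *C1qa* and *C1qb*, 0.99 for *C1qa* and *C1qc* and 0.97 for *C1qb* and *C1qc*. *C3ar1* correlated with the C1q genes at 0.86 to 0.88 and *C5ar1* at 0.84 to 0.88. *Cfb* stood apart from the C1q genes (0.43 to 0.46) and was nearest to *C4b* (0.65) and *C3* (0.61). These values are descriptions; the points share libraries and depth.

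Macrophage markers varied with the C1q genes and *C3ar1* within the groups. The summed level of 6 macrophage markers (*Adgre1*, *Csf1r*, *Cd68*, *Mertk*, *Fcgr1* and *Cd163*) spanned 194 to 207 CPM with PBS, 241 to 559 CPM with isotype and 226 to 316 CPM with anti–IL-4Rα. By edgeR, 4 of the 6 genes were higher in isotype than PBS, where 9.53% of all genes were called higher. *Cd163* was lower in anti–IL-4Rα than isotype, where 8.13% of all genes were called lower. *Cd68* (adjusted p = 0.0820) and *Mertk* (0.498) did not pass in isotype against PBS by edgeR. In anti–IL-4Rα against PBS, 0 of the 6 were called by edgeR, with adjusted p from 0.0641 to 0.743. The C1q genes were called, at 0.0289 to 0.0337 in the same test. The median log2 fold change of the 6 was 0.51. Every anti–IL-4Rα library lay above every PBS library for 4 of the 6, as for 2.98% of all genes. Whether the C1q genes and the markers differed in this comparison was not tested. Within the groups, over the 15 libraries, the mean log2 CPM of this list correlated with *C1qa*, *C1qb* and *C1qc* at Pearson's r of 0.95, 0.96 and 0.96 and Spearman's rho of 0.90, 0.90 and 0.85. Without the 2 libraries farthest from the median of the marker list, r was 0.89, 0.88 and 0.90. *C3ar1* gave r of 0.94 and rho of 0.82, with r of 0.85 without the 2 libraries. For *C5ar1*, r of 0.83 and rho of 0.61 stood beside an r of 0.40 without the 2 libraries, so that its relation rested on them. *C3*, *C4b* and *Cfb* were less close to this list (r of 0.71, 0.48 and 0.47). For a fibroblast list r ran from 0.16 to 0.72 over the 8 genes, with the C1q genes highest or nearly so. *C1qa*, *C1qb* and *C1qc* had r of 0.68, 0.70 and 0.72 with it. Without the 2 libraries farthest from the median of that list, these were 0.39, 0.40 and 0.38. For the lacrimal acinar list r ran from -0.34 to -0.01. These correlations are given as descriptions, with no test.

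Neutrophil markers (*Csf3r*, *Cxcr2*, *Ly6g*, *Retnlg*, *Mmp8* and *Camp*) summed to 14.7 to 23.9 CPM with PBS, 29.8 to 68.2 CPM with isotype and 18.9 to 25.8 CPM with anti–IL-4Rα, so that every isotype library lay above every other library. Of the 4 that passed the filter, which *Ly6g* and *Camp* did not, 4 were higher in isotype than PBS and 3 were lower with anti–IL-4Rα than isotype in edgeR, with median log2 fold changes of 1.74 and -1.58. The 4 monocyte markers summed to 44.01 to 65.3, 71.8 to 129 and 59.6 to 109.96 CPM in the PBS, isotype and anti–IL-4Rα groups, with 3 higher in isotype than PBS, 1 lower with anti–IL-4Rα than isotype and 2 higher with anti–IL-4Rα than PBS. The 5 mast cell markers summed to 134 to 182, 148 to 256 and 145 to 192 CPM in the same order, with 2 higher in isotype than PBS and edgeR's adjusted p from 0.0616 to 0.929 for anti–IL-4Rα against isotype. These counts stand beside 9.53% of all genes called higher in isotype against PBS and 8.13% called lower in anti–IL-4Rα against isotype. In anti–IL-4Rα against PBS, 2.28% of all genes were called higher. The part of macrophages, neutrophils, monocytes and mast cells in the changes of the 8 genes was not tested.

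**Figure D3:**
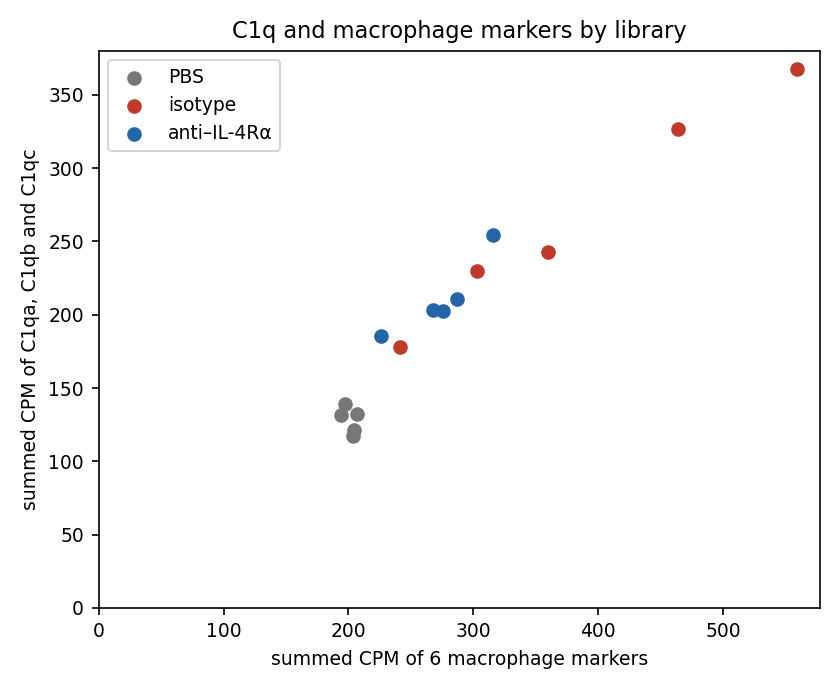
Summed CPM of *C1qa*, *C1qb* and *C1qc* (y axis) against the summed CPM of 6 macrophage markers (x axis), each point 1 library, colored by group. The PBS libraries cluster at 194 to 207 CPM of marker sum and 117 to 139 CPM of C1q sum, the isotype libraries extend to 559 and 368 CPM, and the anti–IL-4Rα libraries have a C1q sum of 185 to 254 CPM.

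Ratios of *C3* within a library separated the anti–IL-4Rα group from the others. They were chosen after their values were seen and have no test. *C3* over *Cfb*, per kb, was 4.74 to 6.21 in the PBS libraries, 3.40 to 6.22 in the isotype libraries and 2.79 to 3.17 in the anti–IL-4Rα libraries. *C3* over *C4b*, per kb, was 3.65 to 5.17, 3.89 to 5.45 and 2.34 to 2.84 in the same order. For both ratios each of the 5 anti–IL-4Rα libraries lay below each of the other 10. The summed CPM of the C1q genes over that of the macrophage markers was 0.577 to 0.703 in the PBS libraries, 0.657 to 0.759 in the isotype libraries and 0.734 to 0.820 in the anti–IL-4Rα libraries. The anti–IL-4Rα range lay above that of PBS and overlapped that of isotype.

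**Figure D4:**
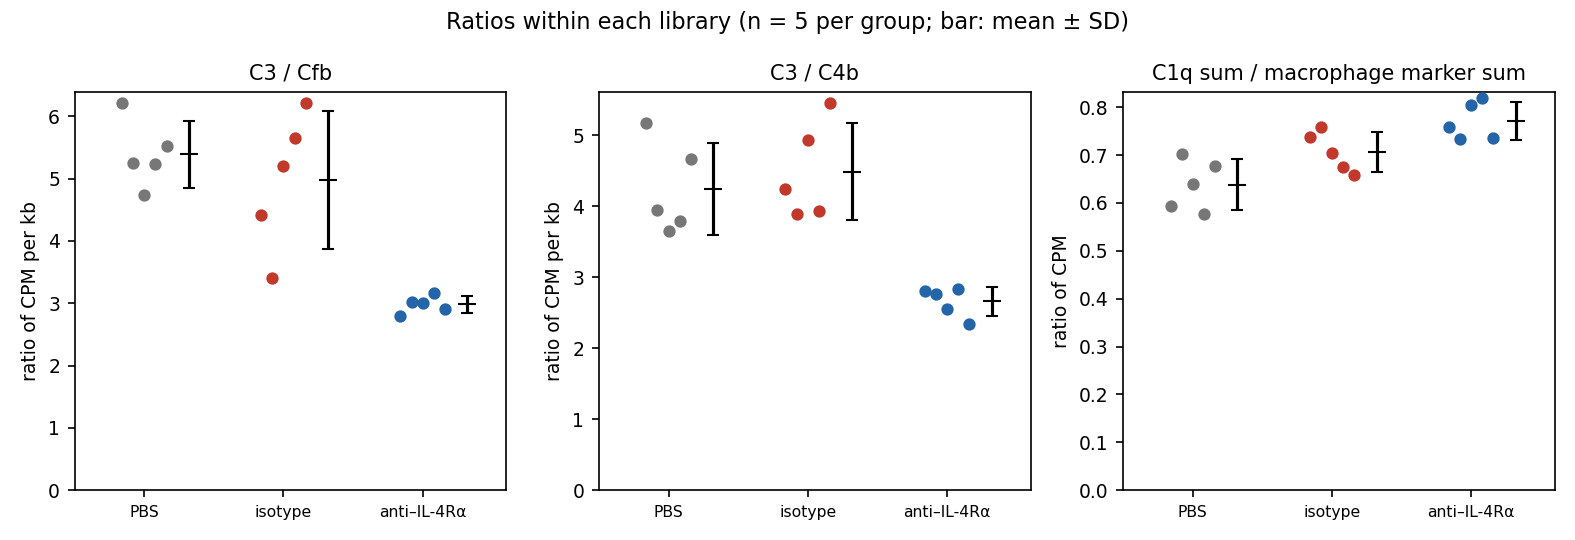
Ratios within each library (y axes, from 0) by group (x axes): *C3* to *Cfb* and *C3* to *C4b* as ratios of CPM per kb, and the C1q sum to the macrophage marker sum as a ratio of CPM; points are libraries and bars the mean ± SD (n = 5). The anti–IL-4Rα libraries lie below all others for both *C3* ratios (2.79 to 3.17 and 2.34 to 2.84), and for the C1q ratio (0.734 to 0.820) they lie above the PBS libraries and overlap the isotype libraries.

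The rest of the pathway was described through 7 lists of 52 complement genes, the 8 included, of which 41 were tested. In isotype against PBS, 13 of the 41 were higher and 5 lower, and of the 33 besides the 8 genes 7 were higher and 5 lower, with a median log2 fold change of 0.01, where 9.53% of all genes were called higher and 7.49% lower. In anti–IL-4Rα against isotype, 3 of the 41 were higher and 4 lower, shares near those over all genes (6.73% and 8.13%), and of the 33 besides the 8 genes 3 were higher and 3 lower. In anti–IL-4Rα against PBS 6 of the 41 were higher, beside 2.28% of all genes. Of the 33 besides the 8 genes, 1 was higher and 0 lower in that comparison.

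Of the 10 classical pathway genes, the C1q genes were the 3 called in isotype against PBS, and those that act next to C1q in the cascade did not pass. *C1ra*, a C1r protease gene, had 99.8 ± 8.52 and 101 ± 12.6 CPM in the PBS and isotype groups (log2 fold change 0.01, SE 0.11, adjusted p = 0.962). *C1s1*, a C1s protease gene, was at 101 ± 7.19 and 110 ± 13.1 CPM (0.12, SE 0.11, adjusted p = 0.465). *C2* was at 22.3 ± 2.72 and 20.8 ± 1.82 CPM (-0.10, SE 0.10, adjusted p = 0.494) and *C4a* at 5.39 ± 0.390 and 5.72 ± 1.06 CPM (0.09, SE 0.15, adjusted p = 0.728). *C1qa* over *C1s1*, per kb and chosen after its values were seen, was 1.45 to 1.62 in the PBS libraries, 2.29 to 3.31 in the isotype libraries and 1.77 to 2.24 in the anti–IL-4Rα libraries, 3 ranges that did not overlap. Sequence is shared between *C1ra* and its paralogs (38.35% of 90-base stretches) and between *C1s1* and *C1s2* (9.07% of those of *C1s1*), and *C2* shares 36.07% with the overlapping *Gm20547*.

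In the lectin pathway, 4 of 8 genes were tested. *Masp1*, which encodes a protease of that pathway, rose from 20.3 ± 3.82 to 31.6 ± 4.74 CPM (log2 fold change 0.64, SE 0.13, adjusted p = 0.00660) and was lower again, at 23.1 ± 1.82 CPM, with anti–IL-4Rα (-0.45, SE 0.13, adjusted p = 0.0335). *Colec11*, which encodes a pattern-binding collectin, was low, at 0.420 ± 0.0889 CPM in the isotype group and 0.671 ± 0.103 CPM in the anti–IL-4Rα group (0.66, SE 0.21, adjusted p = 0.0496). For *Colec11*, every anti–IL-4Rα library lay above every isotype library.

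Of the alternative pathway genes, *Cfp* (properdin, which stabilizes the C3 convertase) rose from 20.8 ± 1.04 to 31.8 ± 8.84 CPM in isotype against PBS (log2 fold change 0.61, SE 0.15, adjusted p = 0.0153) and was at 28.2 ± 3.05 CPM with anti–IL-4Rα. *Cfd*, the factor D protease abundant in fat tissue, ran from 62.0 to 172 CPM in the PBS libraries, from 50.2 to 118 CPM in the isotype libraries and from 92.9 to 169 CPM in the anti–IL-4Rα libraries. It passed in none of the 3 comparisons, with adjusted p values of 0.153, 0.0953 and 0.852.

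Terminal components, which form the membrane attack complex, moved in both directions and were low. *C6* rose from 0.835 ± 0.116 with PBS to 3.22 ± 1.04 CPM with isotype (log2 fold change 1.94, SE 0.26, adjusted p = 0.000897), and with anti–IL-4Rα, at 1.89 ± 0.775 CPM, it was also above PBS (1.18, SE 0.26, adjusted p = 0.0318). *Hc*, which encodes C5, rose from 3.35 ± 0.742 to 6.55 ± 1.85 CPM (0.97, SE 0.23, adjusted p = 0.0146) and was at 3.67 ± 1.05 CPM with anti–IL-4Rα, below every isotype library (-0.83, SE 0.23, adjusted p = 0.0319). *C7*, named outside the rule for genes after its values were seen, fell from 0.654 ± 0.131 to 0.267 ± 0.144 CPM (-1.31, SE 0.41, adjusted p = 0.0399).

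Of the regulators that restrain complement, 3 of 7 tested membrane regulators were lower in isotype against PBS by edgeR, and of 5 soluble regulators 1 was higher and 1 lower, counts to be read beside the 9.53% of all genes called higher and 7.49% called lower. *Serping1*, the C1 inhibitor, had 275 ± 24.4, 224 ± 22.1 and 298 ± 32.5 CPM in the PBS, isotype and anti–IL-4Rα groups; it fell against PBS (log2 fold change -0.29, SE 0.09, adjusted p = 0.0363) and rose with anti–IL-4Rα (0.41, SE 0.09, adjusted p = 0.0133). *Cd59b*, which encodes an inhibitor of the membrane attack complex, was at 1.20 ± 0.261, 0.779 ± 0.157 and 1.14 ± 0.118 CPM in the same order, lower against PBS (-0.63, SE 0.17, adjusted p = 0.0229) and higher with anti–IL-4Rα (0.55, SE 0.17, adjusted p = 0.0444). Its paralog *Cd59a* was lower in isotype than PBS (-0.42, SE 0.13, adjusted p = 0.0340), as was the cofactor gene *Cd46* (-0.52, SE 0.13, adjusted p = 0.0162).

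Other regulators showed no call. *Cr1l*, the mouse gene of the regulator Crry, had 55.6 ± 1.29 and 54.6 ± 3.91 CPM in the PBS and isotype groups (log2 fold change -0.03, SE 0.04, adjusted p = 0.732). *Cd55* was at 37.6 ± 4.34 and 37.5 ± 4.67 CPM (-0.01, SE 0.09, adjusted p = 0.975). *Cpn1*, the catalytic subunit of the carboxypeptidase that trims C3a and C5a, did move: it was at 0.780 ± 0.174, 2.30 ± 0.773 and 0.908 ± 0.147 CPM in the PBS, isotype and anti–IL-4Rα groups. It rose against PBS (1.56, SE 0.22, adjusted p = 0.00118) and fell with anti–IL-4Rα (-1.34, SE 0.22, adjusted p = 0.00436), with every anti–IL-4Rα library below every isotype library.

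Among receptors, 6 of 8 genes were tested. In isotype against PBS 4 rose, *C3ar1* and *C5ar1* among them, where 9.53% of all genes were called higher. In anti–IL-4Rα against isotype the log2 fold changes of the 6 were negative, with edgeR's adjusted p from 0.142 to 0.785. Besides *C3ar1* and *C5ar1*, the called genes were *C5ar2*, the second C5a receptor (1.22, SE 0.36, adjusted p = 0.0344, at 0.129 ± 0.0512 and 0.296 ± 0.142 CPM), and *Itgb2*, the shared β chain of complement receptors 3 and 4 (0.82, SE 0.19, adjusted p = 0.0116, at 18.1 ± 1.72 and 31.95 ± 8.78 CPM). *Itgam*, the α chain of complement receptor 3, had 90.5 ± 19.1 and 93.7 ± 13.995 CPM in the PBS and isotype groups (0.05, SE 0.18, adjusted p = 0.876). *Vsig4*, a macrophage receptor for C3 fragments, did not pass the filter, at 0.114 ± 0.0572, 0.0553 ± 0.0324 and 0.147 ± 0.0949 CPM.

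**Figure D5:**
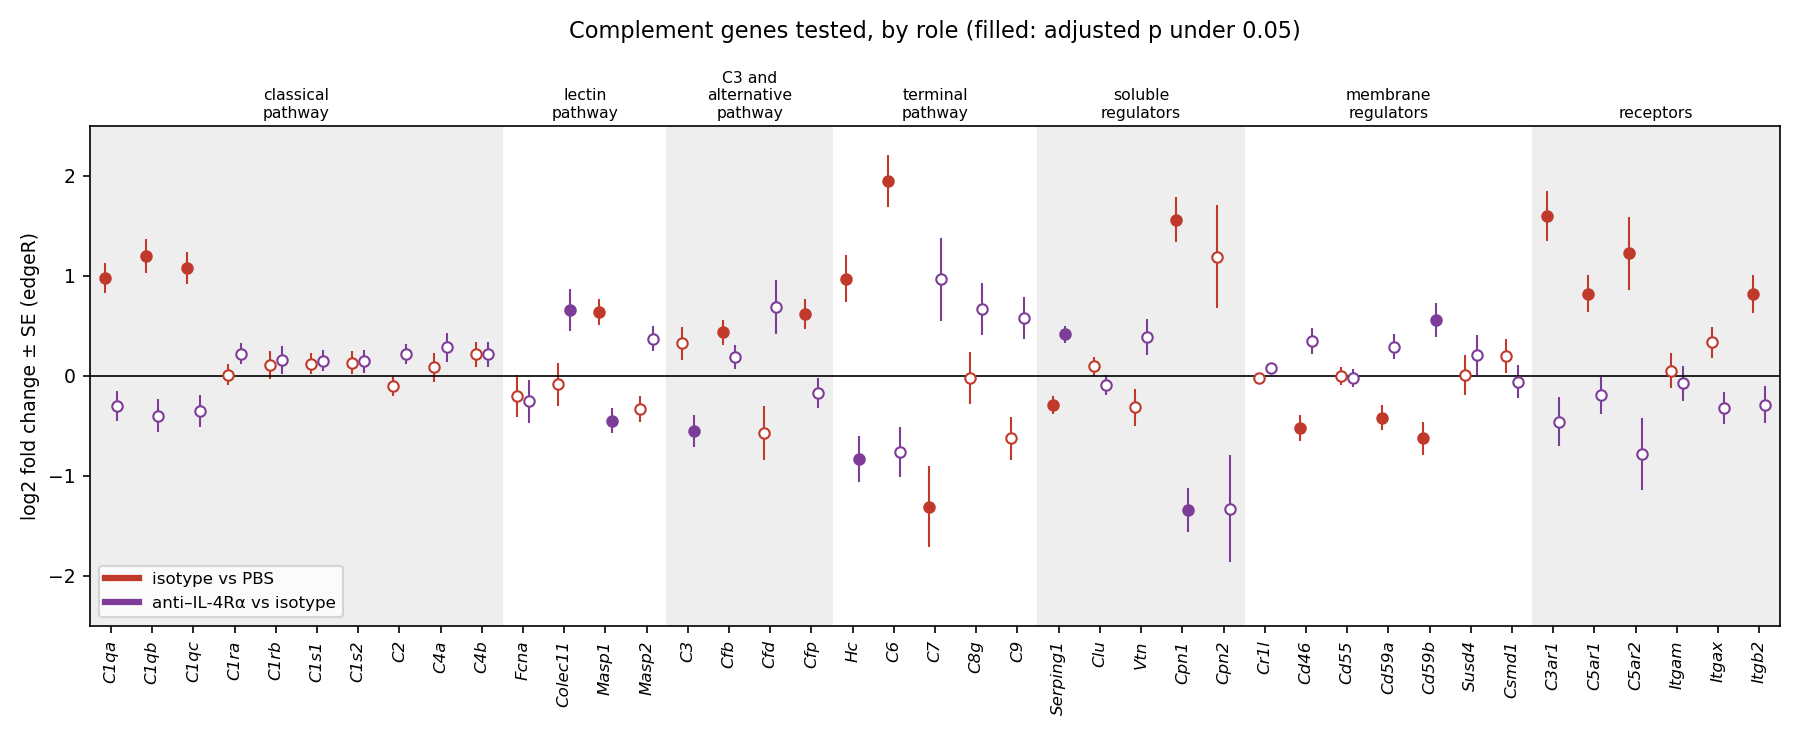
Log2 fold change ± SE from edgeR (y axis) of the 41 complement genes tested (x axis, grouped by role), for isotype against PBS and anti–IL-4Rα against isotype; filled symbols passed an adjusted p of 0.05. *C6* has the highest value for isotype against PBS (1.94), and the classical pathway genes after the C1q chains lie near 0.

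Genes whose pattern was most like that of the 8 were taken by a rule, the 5 tested genes with the highest Pearson's r of group-centered log2 CPM over the 15 libraries. For the mean of the C1q genes these were *Cfp* (0.98), *Folr2* (0.98), *Lgmn* (0.97), *P2ry6* (0.97) and *Fcgr3* (0.96). *Lgmn* (log2 fold change 1.20, adjusted p = 0.00201), *P2ry6* (1.22, adjusted p = 0.00220) and *Fcgr3* (1.52, adjusted p = 0.00118) were higher in isotype than PBS by edgeR, whereas *Folr2* did not pass (0.46, adjusted p = 0.0757). *Lgmn* (-0.80, adjusted p = 0.0185) and *Fcgr3* (-0.77, adjusted p = 0.0311) were lower with anti–IL-4Rα. For *C3* the 5 genes were *Flot2* (0.92), *Ltc4s* (0.92), *Casp12* (0.90), *Gata2* (0.86) and *Snap23* (0.86), and of these *Snap23* alone passed in isotype against PBS (0.20, adjusted p = 0.0358) and with anti–IL-4Rα the 5 had adjusted p values of 0.214 to 0.826 in edgeR. These correlations are descriptions over libraries that share depth and cell content.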

How the data were processed

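RNA-Seq values of 15 conjunctival libraries were read from 1 table. The authors trimmed adaptors, removed low-quality reads and assigned uniquely mapped pairs of polyA-selected reads to genes (B38 mouse reference, Ensembl R100) in Omicsoft Array Studio, and deposited the result as estimated counts per gene. Its version, its way of counting and whether strand was used are not given in the sources used here. The estimated counts were not scaled for depth (48622195 to 87744970 per library) and were rounded to whole numbers here. Groups came from the labels, which number the libraries of a group but do not state that each came from a separate mouse; if some did not, p-values measure a spread that is partly technical. The methods mention outliers that they do not identify, and captions of the study give fewer than 5 libraries for some RNA-Seq groups. All 15 libraries were kept here. Whether calls that turned on 1 library rest on an outlier of the study is not known.

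Names, positions and exon lengths came from GENCODE M21 (GRCm38; 55141 of 55487 identifiers matched). The 19006 genes with 10 or more counts in 5 or more libraries were fitted in edgeR 4.0.16 (TMM, quasi-likelihood, 1 term per group, two-sided, Benjamini-Hochberg, threshold 0.05) in R 4.3.3. SEs were derived from the F statistics. Single values were compared by exact permutation over 252 splits of 10 libraries. The edgeR, voom, DESeq2 and linear model fits were tried on simulated counts, for isotype against PBS alone. The other steps were not tried on simulated data. The other settings were upper quartile factors, DESeq2 1.42.0, limma 3.58.1 voom with quality weights, a linear model on log2(FPKM + 1), filterByExpr, no filter, 2 groups only, a replicate block, a lacrimal acinar covariate and leaving out each library. The 8 genes, the 7 complement lists and the 8 marker lists were chosen with earlier results of these data known. Of the other complement genes, the text names every called gene up to 10 per comparison by adjusted p, and for their roles, called or not, C1ra, C1s1, C2, C4a, Cfd, Cfp, Hc, Serping1, Cr1l, Cd55, Cd59a, C5ar2, Itgam and Vsig4; likeness names 5 genes each. One regulator, 1 macrophage marker and some motifs are not reported here and are left out of every list count and sum; since the macrophage list was shortened after values were known, its correlations have no test. Estimated counts carry no molecular identifiers, so replicate spread, not counting error, was used throughout.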

Additional observations from a re-analysis of the deposited data

How the results depend on the processing

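Of the recomputed tests of the 8 genes, 503 kept their direction and side of the threshold, 59 lost and 14 gained a call, and none changed direction among the settings run. In isotype against PBS, 5 or 6 of the 8 genes were called in every fit; over all genes the count of 3235 fell to 2115 with the replicate block and ran from 1863 to 3936 without 1 library. In anti–IL-4Rα against isotype, the counts for the 8 genes, the 41 complement genes and all genes (1, 7 and 2826) depended on the test. Over the 9 alternative settings the count over all genes ran from 677 to 4045, so that the background of the complement counts differed between fits. DESeq2 called 12 complement genes (7 higher, 5 lower). Limma's voom called 4 of the 8 and 14 of the 41. Counts from DESeq2, voom and the linear model are given beside that range alone, and are not read as particular to complement. The linear model called 0 and 4, the unfiltered edgeR fit 0 and 4 with 1749 of all genes, the fit of 2 groups only 0 and 3 with 677, and the lacrimal acinar covariate 0 and 2 with 710. At an unadjusted p under 0.05 those 4 fits had 1, 4, 1 and 1 of the 8 genes. Leaving out 1 library gave 0 to 5, 2 to 14 and 882 to 4206. In anti–IL-4Rα against PBS (5, 6 and 707), the 41 genes had 10 calls in DESeq2, with 1966 over all genes, and voom called 2318 of all genes. The linear model called 0 of the 8 and 0 of the 41, with 294 over all genes and 7 of the 8 genes at an unadjusted p under 0.05. The unfiltered fit called 327 of all genes, and the lacrimal acinar covariate left 1, 2 and 87. Leaving out 1 library gave 0 to 6, 0 to 7 and 82 to 2029. The cause of these differences between settings was not tested.

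With the replicate block, 0 of the 8 genes were called in anti–IL-4Rα against isotype (edgeR, 4 at an unadjusted p under 0.05) and 1859 of all genes, against PBS 312 of all genes, *C5ar1* gained its call and *C3ar1* lost it, and *Cfb* lost its call in isotype against PBS (adjusted p = 0.0528). The labels do not say what samples with the same replicate number share. Samples with the same number had correlations of their deviations from -0.38 to 0.45 over 15 pairs, median 0.00130. Over 60 pairs with different numbers these ran from -0.67 to 0.58, median -0.00145. These values cannot tell whether samples with the same number shared a batch. Each of the 8 genes had at least 126 counts in every library, and how depth bears on calls near the threshold, among them *C3* and *Cfb*, was not tested. *Cfb* and *C4b* share sequence with other annotated genes, and how the authors' counting treated such reads is not stated.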
